A study of Homo sapiens with 6 samples.

Results

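The transcripts described here encode 10 ligands that natural killer (NK) cells read on other cells through receptors other than NKG2D. They were taken by gene symbol from a table of 25343 genes, all 10 were present, and all 10 passed the filter on low counts. The samples were A375 cells, an established human cell line from a malignant melanoma, in their parental form, and the labels name no NK cells in the cultures. One group received panobinostat, an inhibitor of histone deacetylases, at 50 nM for 24 h (3 libraries), and the other the matching volume of PBS as vehicle for the same 24 h (3 libraries). Totals were 32293283 to 38944399 counts per library. The labels do not say whether replicates came from separate cultures, so p-values here cover only the variation among these libraries, part or all of which may be technical, and the results describe 1 cell line.

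NK cells weigh activating against inhibitory signals from the surface of the cell they touch. Nectin-family proteins engage the activating receptor DNAM-1 and the inhibitory receptors TIGIT and PVRIG, B7-H6 and BAG6 engage activating NKp30, and C-type lectin-like partners engage NKp80 or the inhibitory receptor NKR-P1A. HLA-E carries peptides cut from the leaders of other class I heavy chains to the inhibitory receptor CD94/NKG2A, while ICAM1 and CD58 hold the contact together through LFA-1 and CD2.

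Of the 10 ligand transcripts, 4 rose and 5 fell with panobinostat, while 1 missed the threshold, an adjusted p under 0.05 in edgeR's quasi-likelihood test. PVRL2 and ICAM1, the only members past 2-fold, rose 2.80-fold and 2.14-fold. CLEC2D and BAG6 also rose, PVR, CLEC2B, HLA-E, CD58 and PVRL3 fell, and NCR3LG1 was not called. These counts stand against a background in which most genes were called: 82.8% of 15499 tested genes, 41.8% higher and 41.0% lower, so 9 calls among 10 members is close to the share over all genes. Calls of at least 2-fold higher made up 18.9% of tested genes and 2 of the 10 members. The groups' ranges did not overlap for 9 members, against 83.4% of tested genes. The median log2 fold change was -0.15 over the members and 0.01 over all tested genes.

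Promoters are shown for the members with the largest rises, ICAM1 and PVRL2, and for PVR, which shares the DNAM-1 receptor with PVRL2 and moved the other way. RefSeq promoters were found for 8 of the 10 members. Each run is the 250 bases before the RefSeq start site on GRCh38.p14, given 5′ to 3′ on the gene's strand, and capitals mark matches on either strand to any of 8 motifs. The search used the GC box, GGGCGG, and the TATA box, TATAAA. It used the AP-1 site, written TGANTCA, the CRE, written TGACGTCA, and the E-box, whose letters are CACGTG. It also used the GAS element, which reads TTCNNNGAA, the palindromic kB sequence, which reads GGAANTTCC, and the ISRE core, given by name only.
ICAM1, chr19:10270870-10271119, + strand: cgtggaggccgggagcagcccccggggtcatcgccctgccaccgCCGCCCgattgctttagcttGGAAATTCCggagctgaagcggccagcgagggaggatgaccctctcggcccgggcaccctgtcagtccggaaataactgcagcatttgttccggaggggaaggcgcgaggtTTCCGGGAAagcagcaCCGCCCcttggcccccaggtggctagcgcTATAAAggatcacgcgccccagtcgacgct
PVRL2 (current symbol NECTIN2), chr19:44846047-44846296, + strand: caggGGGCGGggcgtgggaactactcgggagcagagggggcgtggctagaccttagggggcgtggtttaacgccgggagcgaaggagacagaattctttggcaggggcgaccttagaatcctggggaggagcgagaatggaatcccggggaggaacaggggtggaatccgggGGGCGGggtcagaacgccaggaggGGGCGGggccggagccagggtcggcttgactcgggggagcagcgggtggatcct
PVR, chr19:44643660-44643909, + strand: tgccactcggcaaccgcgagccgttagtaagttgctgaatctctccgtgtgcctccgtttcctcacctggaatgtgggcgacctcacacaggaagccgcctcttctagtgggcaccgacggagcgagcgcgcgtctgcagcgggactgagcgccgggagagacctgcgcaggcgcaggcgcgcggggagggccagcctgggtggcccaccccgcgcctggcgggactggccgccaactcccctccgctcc

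The ICAM1 window held a GGAANTTCC match that began 186 bases before the start, a TTCNNNGAA match at 75 bases and a TATAAA match at 30 bases, besides 2 GC boxes. Among 35116 promoter windows of the same length, 0.826% held GGAANTTCC, 6.57% TTCNNNGAA, 10.7% TATAAA and 42.6% GGGCGG. The PVRL2 window held 3 GC boxes and none of the other 7 motifs, and the PVR window held no match to any of the 8. The remaining motifs occurred in 6.57% (TGANTCA), 1.65% (TGACGTCA), 6.34% (CACGTG) and 3.02% (ISRE core) of the windows. The other members with a promoter did not repeat the contrast of PVRL2 and PVR. PVRL3 held 5 GC boxes and CD58 held 3, and both fell. NCR3LG1, which was not called, held 2. CLEC2D, which rose, held 1 GC box and 1 TGANTCA match. BAG6, which also rose, held no match to any of the 8 motifs in either of its 2 entries. Whether motifs bear on direction was not tested. Matches describe letters and are not measured sites. No source used here names the build behind the counts, so these coordinates belong to the promoter windows alone.

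**Figure D1:**
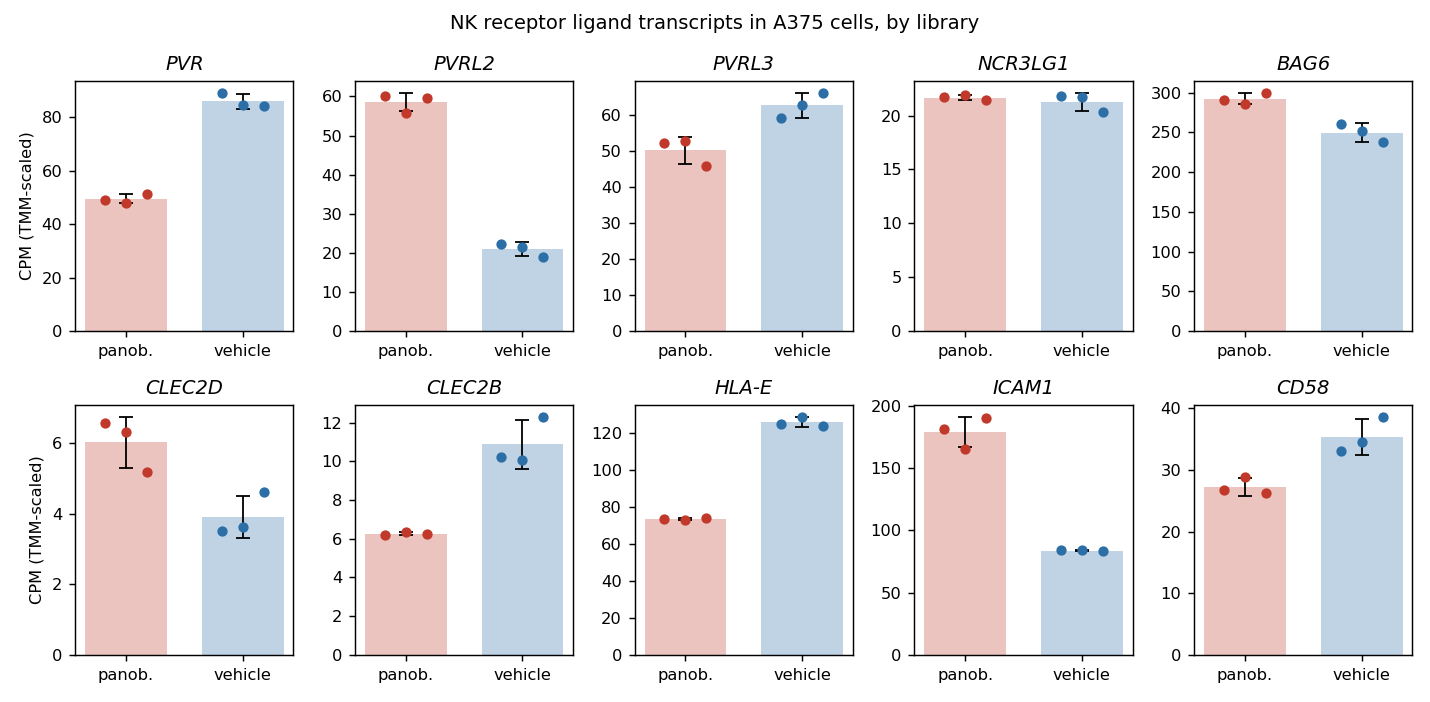
CPM (counts scaled to a common library size, with TMM factors) of the 10 ligand transcripts, with panobinostat (panob.) left and vehicle right in each panel. Dots are libraries, bars means and whiskers SD (n = 3 each). The groups stand apart in every panel but that of NCR3LG1, where panobinostat libraries at 21.4 to 21.9 CPM overlap vehicle libraries at 20.3 to 21.8 CPM.

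The ligands of DNAM-1 moved in opposite directions. PVRL2 (CD112), bound by DNAM-1 and by the inhibitory receptor PVRIG, stood at 60.1, 55.8 and 59.6 CPM (counts scaled to a common library size) in the panobinostat libraries, against 22.3, 21.4 and 18.9 CPM in the vehicle libraries. Every panobinostat library was above every vehicle library, and the log2 fold change was 1.49 ± 0.06 (SE; edgeR adjusted p = 5.03e-13). Of all tested genes 13.28% had a larger log2 fold change. PVR (CD155), bound by DNAM-1, TIGIT and CD96, stood at 49.1, 48.1 and 51.5 CPM in the panobinostat libraries, against 89.1, 84.7 and 84.3 CPM in the vehicle libraries. It was lower in each panobinostat library, with a log2 fold change of -0.80 ± 0.05 (edgeR adjusted p = 4.32e-11), and 16.22% of tested genes had a log2 fold change at or below this. PVRL3 (CD113), a nectin that binds TIGIT and other nectins, stood at 52.0, 52.6 and 45.8 CPM in the panobinostat libraries, against 59.0, 62.7 and 65.9 CPM in the vehicle libraries. Its fall was the smallest of the 5, with a log2 fold change of -0.32 ± 0.06 (edgeR adjusted p = 8.59e-05), again with no overlap between groups.

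Because PVRL2 and PVR moved apart, their balance within a library changed more than either transcript alone. The ratio of PVRL2 counts to PVR counts was 1.22, 1.16 and 1.16 in the panobinostat libraries, against 0.251, 0.253 and 0.225 in the vehicle libraries. Such a ratio does not depend on how libraries are scaled, and it was 4.87-fold higher with panobinostat (log2 difference 2.28). The ratio of PVRL2 to PVRL3 was 3.50-fold higher. Both differed in the same direction in every library, and both gave p = 0.1 in the two-sided exact permutation test (0.1 after adjustment over the 6 ratios compared), the smallest value that 3 libraries against 3 allow.

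Levels of different genes were compared per length, as CPM per kb of merged exons in GENCODE 29. On that scale PVRL2 made up 41.3 ± 0.95% of the summed level of PVR, PVRL2 and PVRL3 with panobinostat and 13.9 ± 1.0% with vehicle (SD, n = 3 each). PVR made up 37.2 ± 1.16% with panobinostat and 60.9 ± 1.0% with vehicle, and PVRL3 21.5 ± 1.75% with panobinostat and 25.2 ± 1.77% with vehicle. PVR was thus below PVRL2 in each panobinostat library and above it in each vehicle library. The summed level of PVR and PVRL2, the DNAM-1 ligands, was 29.7 ± 1.03 CPM per kb with panobinostat and 30.0 ± 1.17 CPM per kb with vehicle. No source used here names the annotation behind the counts. With the length of the longest coding transcript, a choice made after the values were seen, the shares of PVRL2 were 45.4% with panobinostat and 16.5% with vehicle, and the DNAM-1 ligand sum was 38.6 ± 1.36 CPM per kb with panobinostat and 34.3 ± 1.43 CPM per kb with vehicle.

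**Figure D2:**
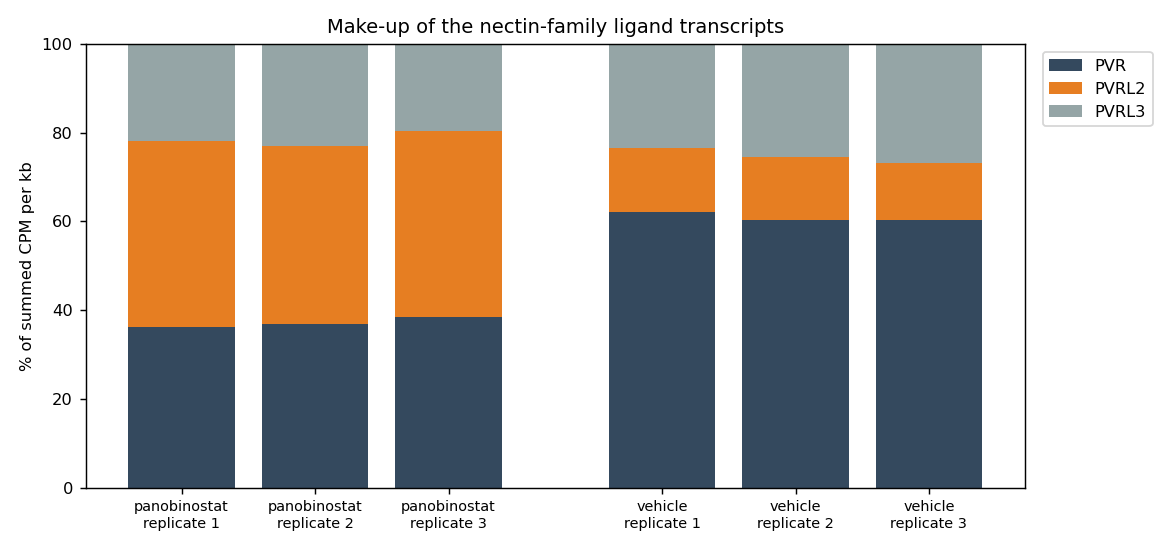
Share of PVR, PVRL2 and PVRL3 in their summed level per length (CPM per kb of merged exons, in percent) in each panobinostat and vehicle library. PVRL2 takes 40.2 to 41.9% in the panobinostat libraries and 12.7 to 14.6% in the vehicle libraries.

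A list of 7 further genes held other nectins, nectin-like proteins and the nectin partner afadin (MLLT4). Of these, 5 were higher and 2 lower, where 82.8% of all tested genes were called. Their median log2 fold change was 0.86, against 0.01 over all tested genes. CADM3, a nectin-like adhesion protein of neural tissue, averaged 36.6 ± 1.07 CPM with panobinostat and 4.14 ± 0.28 CPM with vehicle (SD, n = 3 each). PVRL4 averaged 3.41 ± 0.227 CPM with panobinostat and 0.887 ± 0.12 CPM with vehicle, and CADM2 0.643 ± 0.178 CPM with panobinostat against 0.0258 ± 0.0447 CPM with vehicle, where 2 of the libraries had 0 counts. MLLT4 (afadin), which ties nectins to actin, rose 1.81-fold and PVRL1 1.24-fold. CADM4 and CADM1, which is the ligand of the NK and T cell receptor CRTAM, fell by 0.67 and 0.46 on the log2 scale.

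CD96, a receptor of PVR on NK and T cells, was itself transcribed in these melanoma cells. It stood at 30.6, 27.4 and 31.4 CPM in the panobinostat libraries, against 281, 294 and 302 CPM in the vehicle libraries. CD96 fell by 3.30 on the log2 scale (SE 0.05, adjusted p = 1.76e-18 in edgeR), a larger change than that of any of the 10 ligands. The pan-leukocyte marker PTPRC had 0 to 3 counts in each panobinostat library and 0 in each vehicle library. Over 17 leukocyte and NK cell markers, CD96 among them, the summed level was 160.2 to 165 CPM with panobinostat and 296 to 316 CPM with vehicle, and without CD96 and NCAM1 it was 2.29 to 3.01 CPM with panobinostat and 0.203 to 0.49 CPM with vehicle. NCAM1 (CD56), a neural adhesion protein also used as an NK marker, averaged 130.2 ± 1.78 CPM with panobinostat and 13.9 ± 0.57 CPM with vehicle. The part of these markers in the ligand results was not tested.

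The transcripts of the NKp30 ligands changed little. NCR3LG1, which encodes B7-H6, had 21.7, 21.9 and 21.4 CPM in the panobinostat libraries, against 21.8, 21.7 and 20.3 CPM in the vehicle libraries. The groups overlapped, the log2 difference was 0.03 ± 0.06 (edgeR adjusted p = 0.678), and its 95% interval ran from -0.10 to 0.15. With upper quartile scaling, which shifts the log2 fold changes of all genes by a median of 0.12, the difference was 0.15 and passed (edgeR adjusted p = 0.0293). BAG6, a chaperone of the cytosol and nucleus that binds NKp30 when it is released from cells, had 291, 286 and 299.7 CPM in the panobinostat libraries, against 260.3, 252 and 238 CPM in the vehicle libraries. It rose 1.17-fold (log2 fold change 0.23 ± 0.04, edgeR adjusted p = 5.28e-05), with the groups apart. The ratio of NCR3LG1 to BAG6 counts averaged -3.75 ± 0.05 with panobinostat and -3.55 ± 0.02 with vehicle on the log2 scale, a difference of -0.20 (exact permutation p = 0.1, adjusted 0.1).

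BAG6 acts with partners that hand tail-anchored proteins to the endoplasmic reticulum or to the proteasome. Of 7 such genes 3 rose, 3 fell and 1 did not pass, with a median log2 fold change of 0.24, where 82.8% of all tested genes were called. GET4 and SGTA rose 1.46-fold and 1.21-fold, and the ubiquitin ligase RNF126 rose 1.34-fold. UBL4A, a partner in the BAG6 complex, fell by 0.58, and the targeting factor ASNA1 by 0.49 on the log2 scale. The membrane receptor CAMLG fell by 0.16. It missed the threshold under upper quartile scaling (-0.04) and under a 5 CPM filter (-0.065), which shifts log2 fold changes by a median of 0.095. Its partner WRB stood at 22.6 ± 3.41 CPM with panobinostat and 19.1 ± 2.25 CPM with vehicle and did not pass, although it did in 6 of the 14 alternatives, as a rise of 0.26 to 0.36 on the log2 scale.

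The C-type lectin-like ligands moved in opposite directions, and both had fewer counts than the other members. CLEC2D (LLT1), the partner of the inhibitory receptor NKR-P1A, stood at 6.57, 6.32 and 5.20 CPM in the panobinostat libraries, against 3.51, 3.62 and 4.61 CPM in the vehicle libraries. These values rest on 168 to 238 counts with panobinostat and 125 to 178 with vehicle, and its SE of 0.12 was the largest of the 10 (log2 fold change 0.62, edgeR adjusted p = 0.000169). The lowest panobinostat library was above the highest vehicle library. CLEC2B (AICL), the partner of activating NKp80, stood at 6.22, 6.34 and 6.25 CPM in the panobinostat libraries, against 10.2, 10.1 and 12.3 CPM in the vehicle libraries. Its log2 fold change was -0.80 ± 0.09 (edgeR adjusted p = 3.8e-07), with the groups apart. The count ratio of CLEC2D to CLEC2B was 1.06, 0.996 and 0.832 in the panobinostat libraries, against 0.343, 0.361 and 0.375 in the vehicle libraries, 2.66-fold higher with panobinostat (exact permutation p = 0.1, adjusted 0.1). CLEC2A and CLEC2L, of the same family, had 0 counts in all 6 libraries.

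HLA-E, the ligand of CD94/NKG2A, fell. It stood at 73.6, 72.9 and 74.2 CPM in the panobinostat libraries, against 125, 129 and 124 CPM in the vehicle libraries, a log2 fold change of -0.78 ± 0.04 (edgeR adjusted p = 7.51e-12). The count ratio of HLA-E to B2M, its light chain, was 0.160, 0.156 and 0.167 in the panobinostat libraries, against 0.259, 0.266 and 0.233 in the vehicle libraries. That ratio differed by -0.65 on the log2 scale with no overlap (exact permutation p = 0.1, adjusted 0.1). HLA genes share sequence with each other, so reads may have been split among them and these values are uncertain.

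Genes that supply HLA-E with peptides or help it fold fell in 8 of 11 cases and rose in 1, with a median log2 fold change of -0.45, against 41.0% lower and 41.8% higher over all tested genes. The bridging protein TAPBP fell by 1.55, the peptide trimmer ERAP1 by 1.51, the folding oxidoreductase PDIA3 by 0.95, and the peptide pumps TAP1 and TAP2 by 0.73 and 0.64 on the log2 scale. HLA-C, a heavy chain whose leader feeds HLA-E, fell by 0.45 on the log2 scale. HLA-B, another such heavy chain, did not pass, at 244 ± 7.54 CPM with panobinostat and 246 ± 9.86 CPM with vehicle, but under upper quartile scaling it was called higher (0.11). The lectin chaperone CANX fell by 0.30, while CALR, its soluble relative, stood at 944 ± 21.4 CPM with panobinostat and 979 ± 6.73 CPM with vehicle and did not pass, except as a fall with no filter on low counts and without vehicle replicate 3. B2M fell by 0.13. It missed the threshold under upper quartile scaling (-0.011) and under the 5 CPM filter (-0.037), both of which shift log2 fold changes upward.

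Among the adhesion ligands ICAM1 rose and CD58 fell. ICAM1, the ligand of the integrin LFA-1, stood at 181, 166 and 189.8 CPM in the panobinostat libraries, against 84.3, 83.9 and 83.0 CPM in the vehicle libraries. The log2 fold change was 1.09 ± 0.05 (edgeR adjusted p = 7.46e-13), and 17.56% of tested genes had a larger one. CD58 (LFA-3), the ligand of CD2, stood at 26.7, 28.9 and 26.2 CPM in the panobinostat libraries, against 33.0, 34.4 and 38.6 CPM in the vehicle libraries. Its log2 fold change was -0.38 ± 0.07 (edgeR adjusted p = 4.77e-05), with the groups apart. ICAM1 counts were 6.78, 5.73 and 7.25 times those of CD58 in the panobinostat libraries and 2.55, 2.44 and 2.15 times in the vehicle libraries, 2.76-fold higher with panobinostat (exact permutation p = 0.1, adjusted 0.1).

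Of 7 other partners of NK integrins and CD2, 5 were tested, of which 4 rose and 1 fell (median log2 fold change 0.36), against 41.8% higher over all tested genes. F11R (JAM-A), a junction protein that also binds LFA-1, averaged 139 ± 1.34 CPM with panobinostat and 16.6 ± 0.345 CPM with vehicle. ICAM4 averaged 0.732 ± 0.115 CPM with panobinostat and 0.277 ± 0.0137 CPM with vehicle, and ICAM5 and CD59 rose 1.18-fold and 1.28-fold. ICAM3 fell to 4.22 ± 0.336 CPM with panobinostat, against 8.58 ± 0.422 CPM with vehicle. ICAM2 and VCAM1 had too few counts to be tested.

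ICAM1 and HLA-E are known targets of interferon gamma and, for ICAM1, of NF-kB. Of 14 receptors, kinases and factors of these pathways 8 rose, 5 fell and 1, RELB, did not pass (median log2 fold change 0.22), against 82.8% called over all tested genes. The rise of IRF9 was lost in 7 of the 14 alternatives (0.15 to 0.21 on the log2 scale), among them those without panobinostat replicate 1 or 2 and without vehicle replicate 1 or 2. The fall of JAK2 was lost in 5, among them that without panobinostat replicate 3 (-0.17 to -0.05 over the 5), and RELB was called lower without vehicle replicate 3 (-0.17). With the replicate block the adjusted p in edgeR was 0.057 for IRF9 and 0.0513 for JAK2. TNFAIP3, a brake on NF-kB, rose 3.78-fold and the NF-kB subunit NFKB2 1.83-fold. NFKB1, which encodes the p50 subunit, averaged 21.3 ± 1.65 CPM with panobinostat and 129 ± 3.15 CPM with vehicle. The interferon gamma receptor chain IFNGR2 averaged 32.5 ± 1.73 CPM with panobinostat and 132 ± 1.95 CPM with vehicle, and STAT2 fell by 0.30 on the log2 scale. Whether any of these changes bears on ICAM1 or HLA-E was not tested.

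**Figure D3:**
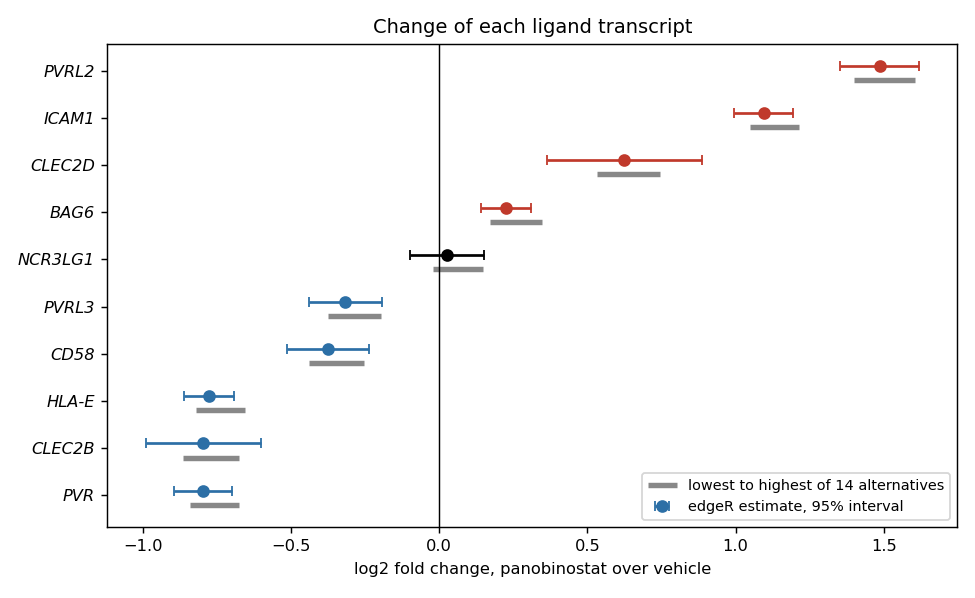
Log2 fold change of each ligand transcript, panobinostat over vehicle, with its 95% interval from edgeR (red higher, blue lower, black not called). Grey bars run from the lowest to the highest of 14 alternative fits. PVRL2 leads at 1.49 and PVR and CLEC2B are lowest at -0.80, and NCR3LG1 alone has bars that cross 0.

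Per length, the order of the members changed. With panobinostat it ran BAG6 (55.0 CPM per kb), ICAM1 (48.3), HLA-E (24.7), PVRL2 (15.6), CD58 (15.3), PVR (14.1), PVRL3 (8.11), NCR3LG1 (3.37), CLEC2B (2.38) and CLEC2D (0.867). With vehicle it ran BAG6 (47.1 CPM per kb), HLA-E (42.4), PVR (24.4), ICAM1 (22.6), CD58 (19.8), PVRL3 (10.1), PVRL2 (5.58), CLEC2B (4.12), NCR3LG1 (3.30) and CLEC2D (0.563). BAG6 was highest and CLEC2D lowest in both groups. ICAM1, PVRL2 and NCR3LG1 stood higher in the panobinostat order, and PVR, HLA-E, PVRL3 and CLEC2B lower. Neighbours in these orders did not overlap between libraries except PVRL2 and CD58 with panobinostat. With the length of the longest coding transcript, PVRL2 and CD58 did not overlap with panobinostat, CLEC2B stood above NCR3LG1 there, and CD58, PVR and ICAM1 followed HLA-E with vehicle, each overlapping the next.

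**Figure D4:**
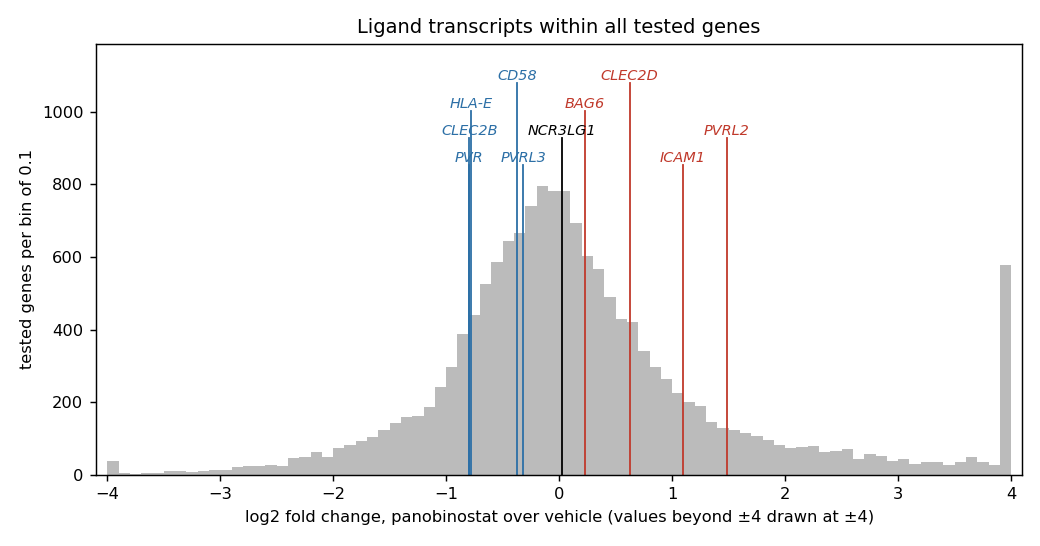
Distribution of the log2 fold change (panobinostat over vehicle) of all 15499 tested genes, with the 10 ligand transcripts marked (red higher, blue lower, black not called). All members lie between -0.80 and 1.49, and none is at an edge of the distribution.

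Among 11198 other tested genes at 5 CPM or more, the profiles over the 6 libraries most like that of PVRL2, by root mean square difference of centred log2 CPM, were those of AGRN (0.0286), ANKEF1 (0.0368) and VGF (0.0373). AGRN averaged 516 CPM with panobinostat and 189 CPM with vehicle, and VGF 2298 CPM with panobinostat and 798 CPM with vehicle. For ICAM1 they were SRXN1 (0.0356), MAPKAPK3 (0.0358) and HEBP2 (0.0393). SRXN1 averaged 145.9 CPM with panobinostat and 67.0 CPM with vehicle.

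Further transcripts reported to bind NK receptors were a mixed group. Of 22 listed, 18 were tested, of which 10 rose, 5 fell and 3 did not pass (median log2 fold change 0.35), against 82.8% called over all tested genes. TNFSF9, the ligand of the costimulatory receptor 4-1BB, stood at 134, 135 and 139 CPM in the panobinostat libraries, against 6.76, 6.67 and 6.32 CPM in the vehicle libraries. CD70, the ligand of CD27, averaged 74.2 ± 1.22 CPM with panobinostat and 34.2 ± 1.90 CPM with vehicle, and the galectin LGALS3 rose 1.82-fold. PCNA, the replication clamp that is also reported to bind NKp44, averaged 79.4 ± 1.85 CPM with panobinostat and 187 ± 3.30 CPM with vehicle, and the basement membrane protein NID1 and the filament protein VIM fell by 0.93 and 0.78 on the log2 scale. CEACAM1, CDH2 and HLA-G, named after their values were seen, did not pass. CEACAM1 was called lower without panobinostat replicate 1 (-0.58), and CDH2 with no filter on low counts (-0.095). Of 6 tested NKG2D ligands 5 were called higher and 0 lower, with a median log2 fold change of 0.46, against 41.8% higher over all tested genes. One of these calls, that of MICB, was lost in 6 of the 14 alternatives, among them those without panobinostat replicate 3 and without any 1 of the vehicle replicates (0.11 to 0.19 on the log2 scale over the 6).

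**Figure D5:**
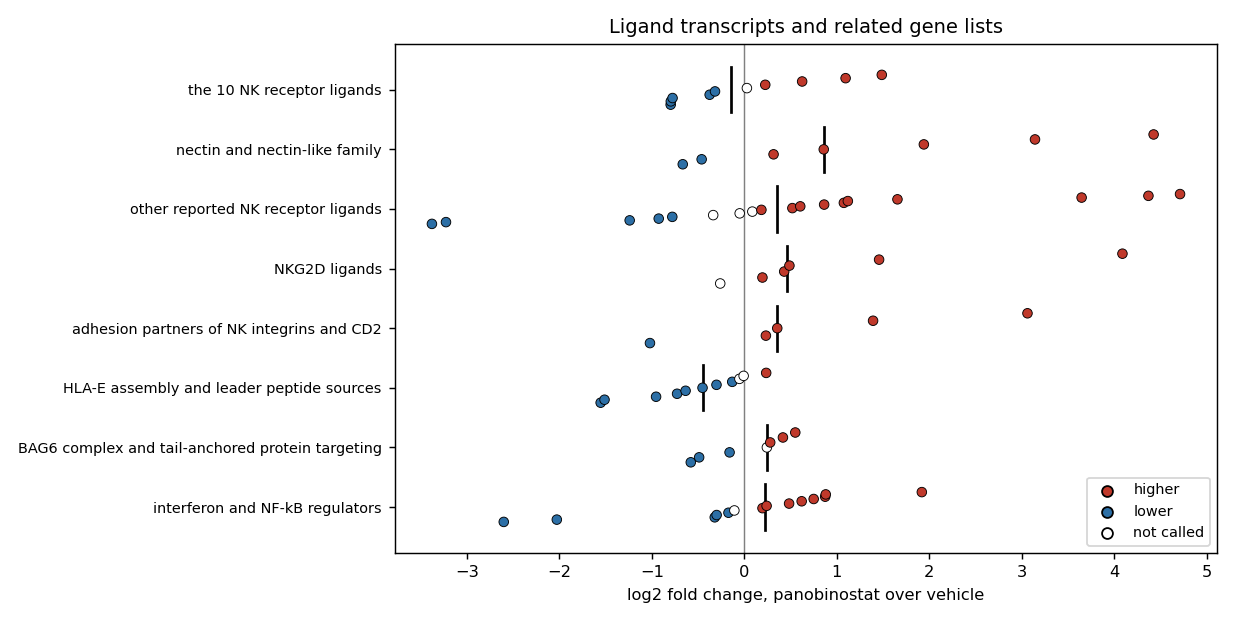
Log2 fold change (panobinostat over vehicle) of tested genes in the ligand set and 7 related lists. Each dot is a gene (red higher, blue lower, white not called) and each black line the list's median. Medians run from -0.45 for HLA-E assembly genes to 0.86 for the nectin and nectin-like list, which includes afadin (MLLT4).

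The lineage markers SOX10 and MITF were present in all libraries, while MLANA and TYR had 0 counts throughout. The lineage markers did not move together. PMEL, a melanosome protein, averaged 194 ± 9.46 CPM with panobinostat and 0.628 ± 0.118 CPM with vehicle, while SOX10 averaged 368 ± 21.8 CPM with panobinostat and 813 ± 56.3 CPM with vehicle. Summed levels of 10 melanocyte lineage markers were 651 to 716 CPM with panobinostat and 999 to 1119 CPM with vehicle. Those of 7 epithelial markers were 348 to 367 CPM with panobinostat and 169 to 178 CPM with vehicle, and those of 8 fibroblast and endothelial markers 86.6 to 89.6 CPM with panobinostat and 24.1 to 26.1 CPM with vehicle. Their part in the ligand results was not tested, and in bulk RNA fewer cells of a type and less RNA per cell cannot be told apart. In GENCODE 29 exons of PVR overlap those of CEACAM19 on the same strand over 3.44% of their length, and exons of BAG6 those of APOM on the opposite strand over 2.56%. CEACAM19 averaged 1.52 CPM with panobinostat and 0.79 CPM with vehicle, and APOM 0.445 CPM with panobinostat and 0.651 CPM with vehicle, far under the genes they overlap. Antisense genes with no values analysed here overlap 21.99% of the exon length of ICAM1, 18.16% of that of CLEC2B and 3.42% of that of PVRL2, a pseudogene overlaps 12.13% of that of CLEC2D, and since no source used here gives the strand setting, their reads could not be separated.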

How the data were processed

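RNA of 6 A375 libraries (3 panobinostat, 3 vehicle) was analysed from whole-number counts per gene symbol that the authors deposited without normalization. STAR is named only in the title of that table. No source used here gives its version, the build, the annotation, the counter or the strand setting. The table's 92 spike-in lines, at 0 counts, were left out. Columns were matched to samples by title and grouped by labelled dose.

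All genes were fitted together with edgeR 4.0.16 in R 4.3.3 (filterByExpr, TMM, estimateDisp, glmQLFit with robust fitting, glmQLFTest on group), and p-values were adjusted by Benjamini-Hochberg over 15499 genes. SE is the absolute log2 fold change divided by the square root of F. The median SE was 0.0689, and 3 counts in a library equal 0.0774 to 0.0928 CPM. Within-library ratios used 0.5 added counts. Pairs of replicates differed by more than sampling noise (chi-square per degree of freedom 1.90 to 9.14).

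The members and lists were chosen with earlier results of these data known. Genes named are all members, the 3 called genes with the lowest adjusted p in each direction of a list, further genes of lists of 12 or fewer where a count needs them, the 3 nearest profiles of each member past 2-fold, and genes the annotation places over a member. Some genes that this rule names are not reported here. The alternatives tried were scaling by upper quartile, by RLE or by library size alone, a filter of 5 CPM in 3 libraries or none, DESeq2 1.42.0, limma-voom (limma 3.58.1), a replicate block, and leaving out each library. Transcript lengths other than merged exons, and leukocyte sums without CD96 and NCAM1, were added after the data were seen. The steps were tested on simulated data.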

Additional observations from a re-analysis of the deposited data

How the results depend on the processing

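The calls of 9 members (all but NCR3LG1) kept their direction and stayed past the threshold in each of the 14 alternatives, with PVRL2 at 1.40 to 1.61, ICAM1 at 1.05 to 1.22, PVR at -0.84 to -0.68 and HLA-E at -0.82 to -0.66 on the log2 scale. NCR3LG1 passed with upper quartile scaling (0.15). The 5 CPM filter tested fewer genes and shifted log2 fold changes by a median of 0.095. With this filter 3 genes of the nectin and nectin-like list and 3 NKG2D ligands rose. Under it 3 other reported NK receptor ligands fell. With upper quartile scaling 2 genes of HLA-E assembly rose, and HLA-B passed as a rise (0.11), as all genes shift upward under it. Leaving out single libraries gave 0 to 1 NKG2D ligands lower, the 1 being RAET1E without vehicle replicate 1. Of 68 tested genes of the related lists, 12 changed call or direction in some alternative. Replicates with the same number did not deviate together (correlations -0.35, -0.25 and -0.54), and no library correlated best with its own number. Deviations were taken from each group's mean over 3 libraries, so these correlations depend on each other and cannot decide whether replicates were paired. The replicate block gave 6259 genes higher and 6150 lower, against 6471 and 6355 without it, and changed no member's call. With paired differences by replicate number the 6 ratio differences kept their size, and the exact sign-flip p was 0.25 for each, the smallest 3 pairs allow. At this depth CLEC2D and CLEC2B rest on 125 to 475 counts per library, which limits their precision.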
